A study of Danio rerio with 9 samples.

Results

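The genes described here act in mitosis and in the segregation of chromosomes, and they were followed in eyes dissected from zebrafish embryos that were or were not exposed to ethanol. They were chosen by symbol alone. A gene was taken if its symbol began with ccna, ccnb, plk, aurk, bub, mad2, kif, cenp, smc, ncap, spc2, tacc or top2, or was cdk1, cdc20, nuf2, ndc80, incenp, racgap1, tpx2 or ttk. This gave 62 genes on 91 probe sets, of 8793 genes that the array names by a single symbol, and the probe set of highest mean signal stood for each gene. Of the 62, 56 were bright enough to be tested. The prefixes reach beyond mitosis, since kif also names motors of axonal and ciliary transport. The 56 genes were therefore read as 44 with a role in mitosis or chromosome structure, 9 transport, ciliary and other kinesins, and the stress-responsive Polo-like kinase gene plk3. Those 9 were every other tested kif symbol, not all of them transport motors, and are called transport kinesins for short. The remaining genes, mad2l2 and smchd1, were not placed in a mitotic role here.

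A dividing cell enters mitosis when cyclin B activates the kinase Cdk1. Condensin then compacts the chromosomes, kinesin motors build the spindle, and kinetochores attach each chromosome to its microtubules, while the spindle checkpoint holds back the activator Cdc20 until all are attached. Many of these mRNAs accumulate shortly before and during division and are scarce in cells that have left the cycle. In the embryonic eye, dividing progenitors line the optic cup. Over the second day of zebrafish development some of them stop dividing and become the earliest neurons.

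Total RNA from dissected eyes was hybridised to Affymetrix zebrafish arrays, with 1 array per condition. Untreated eyes were taken at 24 hours post fertilization (hpf). Eyes of control embryos and of embryos given ethanol followed at 27, 30, 36 and 48 hpf, all raised at 28.5 °C. The sources used here do not give the strain, the ethanol dose and timing, or the number of embryos behind each array. Heat Shock Factor 1, a transcription factor of the stress response, is named in the study's title, and no group differs in it. Values are MAS5 signals, a brightness per probe set on a linear scale, and differences are on the log2(signal + 5) scale, which understates the change of dim genes. The number of arrays limits the precision. Nothing repeats a condition, so each p-value measures only the spread between these samples, which may be technical.

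The labels contradict each other for 3 arrays. By the treatment characteristic the 30 hpf and 36 hpf ethanol arrays were untreated and the 36 hpf control array had received ethanol, whereas sample titles and source names matched throughout and were used here. The counts of genes called with ethanol and the step from 36 to 48 hpf are also given with arms from that characteristic. Markers of retinal progenitors and of the lens were detected on every array, with summed signals of 4661 to 6679 and 3701 to 9087. Markers of other tissues were present too. Of 28 tested genes listed as brain markers from outside the eye, 25 had an ethanol difference above 0 and 4 were called higher. Over all probe sets, 1.62% were called higher with ethanol and 0.624% lower, rates to set beside each tissue list here. The summed signal of the brain markers was 1874 to 3068 in the untreated and control arrays and 2540 to 5197 in the ethanol arrays. That list also holds ptf1a and barhl2, which are used in the retina as well, so its sums are not from outside the eye alone. At 48 hpf barhl2 gave 775 of 2678 in control eyes and 807 of 5197 in ethanol eyes. Of 13 yolk and liver markers all had an ethanol difference above 0 and 3 were called higher, with sums of 680.2 to 3899 and 1765 to 4636. Of 8 tested muscle markers 4 were above 0, and their summed signal was 4491 in the control array at 48 hpf, 1301 in the ethanol array at 48 hpf and 699 to 2016 in the 7 earlier arrays. Of the skin markers 10 of 17 were above 0 and 1 was called lower, with sums of 11864 to 15565 over the 9 arrays. Of the blood and vessel markers 10 of 12 were above 0 and 3 were called higher, with sums of 3511 to 5519. The part of these tissues in the values below was not tested. In whole-eye RNA, fewer cells of a type and less RNA per cell cannot be told apart.

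As a group, the mitotic genes were somewhat brighter at 36 hpf than at 24 hpf and dimmer at 48 hpf. The highest value of a control series stood at 36 hpf for 27 of the 56 genes, beside 17.5% of all probe sets, and the lowest at 48 hpf for 35, beside 33.9%. In ethanol eyes these counts were 24, beside 16.1%, and 33, beside 39.1%. In control eyes, 46 of the 56 genes were higher at 36 hpf than at 24 hpf, with a median difference of 0.24 beside 0.02 over all 9301 probe sets tested. Then 48 of 56 (85.7%) were lower at 48 hpf than at 36 hpf, with a median of -0.47, beside 54.5% and a median of -0.05 over all probe sets. In ethanol eyes, measured on other arrays, 43 of 56 were lower over the same 12 h step, with a median of -0.29 beside -0.04. Among the 44 genes with a mitotic role, 43 were lower at 48 hpf in control eyes (median -0.52, the exception being tacc2) and 38 in ethanol eyes (median -0.34). With the 36 hpf arrays exchanged as the treatment characteristic has them, these counts were 42 and 42 of 44, with medians of -0.47 and -0.44, so the gap between the arms rests on which label is right. There is no test of a step between 1 array and 1 array. The direction of the step held under other scalings of the arrays, whereas in ethanol eyes the number of genes higher at 36 than at 24 hpf went from 40 to 27 of 56 when each array was centred on its median. The lower values at 48 hpf took in cyclins, mitotic kinases, checkpoint, kinetochore and condensin genes alike, while most transport kinesins ran against them.

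**Figure D1:**
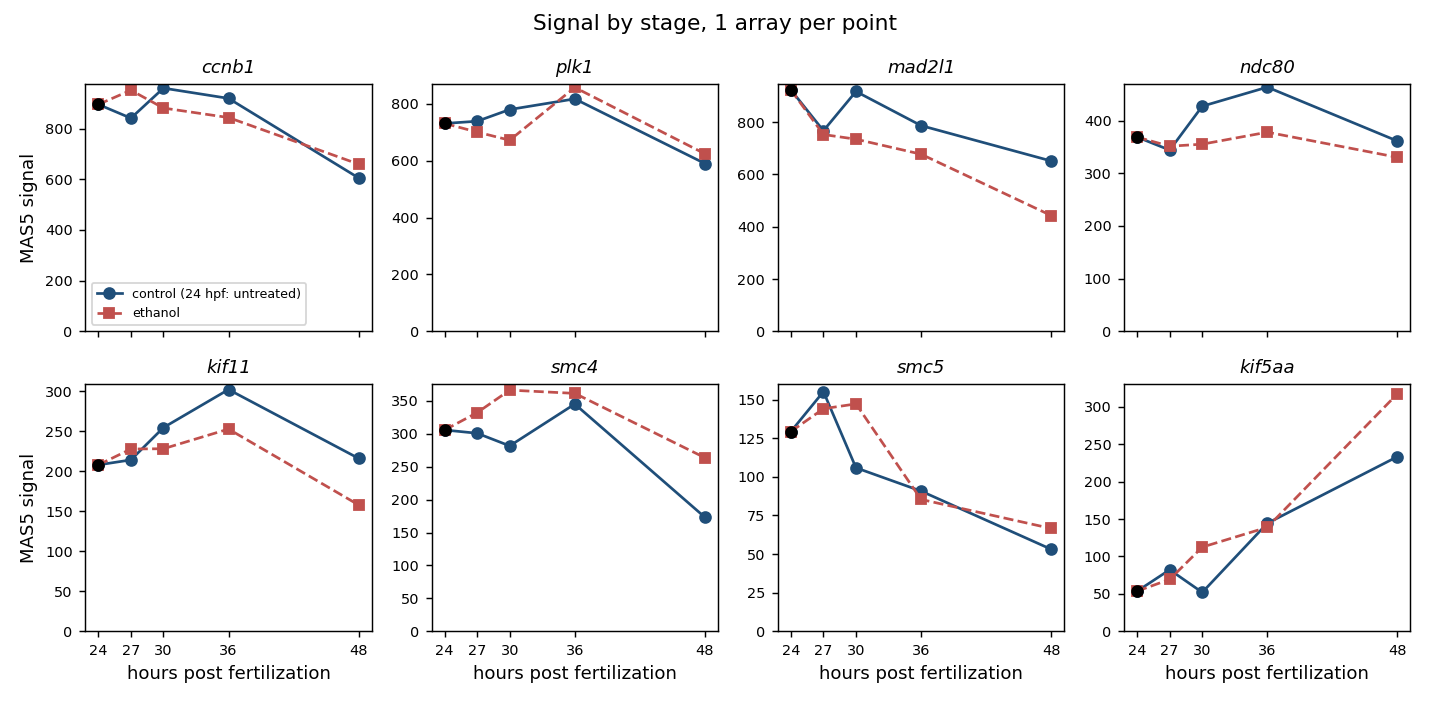
MAS5 signal (linear axis from 0, 1 array per point) against hours post fertilization for 8 genes, in control eyes (circles, with the untreated 24 hpf array in black) and ethanol eyes (squares). The ccnb1, plk1, mad2l1, smc4 and smc5 signals were lowest at 48 hpf in both arms, whereas kif5aa, a transport motor, was highest at 48 hpf.

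Both 48 hpf arrays lay below all 7 earlier arrays for 27 of the 56 genes, beside 15.5% of all probe sets, and above all of them for 5, beside 13.2%. The 27 included 25 of the 44 mitotic genes. In a comparison added after this shape was seen, limma set the 2 arrays at 48 hpf against the 7 earlier ones with ethanol as a term. It called 19 of 56 genes lower at an adjusted p of at most 0.05, beside 12.4% of all probe sets, and 5 higher, beside 10.8%. That count depended on the arrays. It was 7 without the 27 hpf pair, beside 5.99% of all probe sets, and 5 without the 30 hpf pair, beside 4.39%. It was 0 within the untreated and control arrays alone, beside 0.871%, and 0 within the 24 hpf and ethanol arrays alone, beside 0.011%, where a single 48 hpf array stood against 4 earlier ones. The number of genes below 0 was 45, 44, 45 and 38 of 56 in those 4 fits. Because the comparison was chosen from these same values, it cannot test the low signals at 48 hpf. Its adjusted p-values, here and for single genes below, only describe them.

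**Figure D2:**
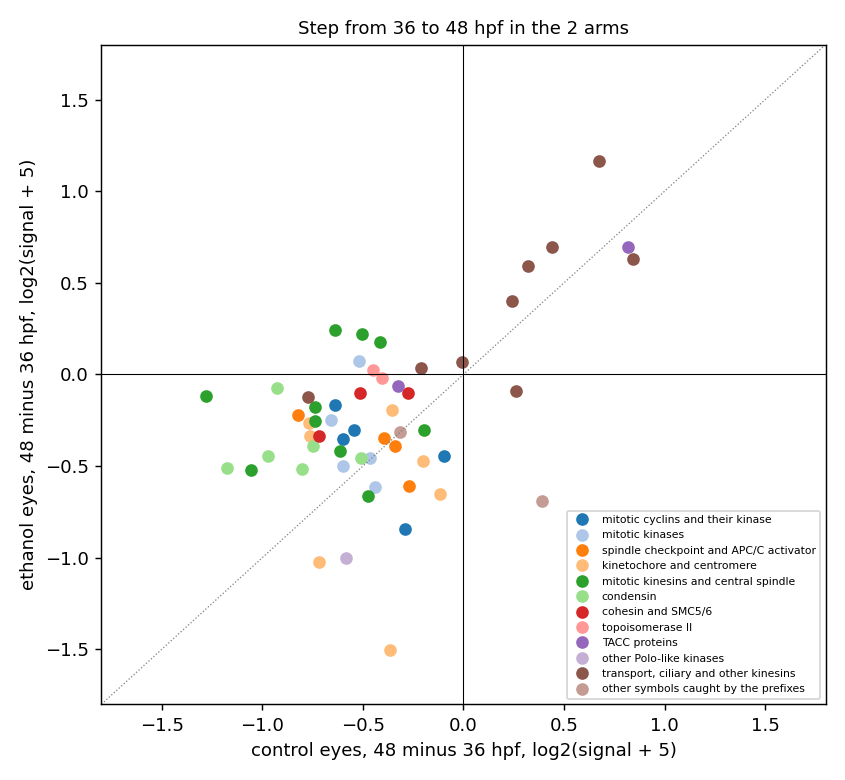
Difference between 48 and 36 hpf of each of the 56 genes, log2(signal + 5), in control eyes (horizontal axis) against ethanol eyes (vertical axis), coloured by role, with a dotted line of equality. Mitotic genes gather in the lower left, at a median of -0.52 in control and -0.34 in ethanol eyes, and the points in the upper right are transport kinesins and tacc2.

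Among the mitotic cyclins, ccnb1, which encodes the main activator of Cdk1 at entry into mitosis, had a signal of 895 at 24 hpf, 841, 959.5, 919 and 605 in control eyes at 27, 30, 36 and 48 hpf, and 951, 881, 843 and 659 in ethanol eyes. Only the 48 hpf arrays lay outside the range of the earlier ones. Over the whole series its fitted change was -0.56 ± 0.16 per 24 h (SE, limma, adjusted p = 0.0189), and 48 hpf differed from earlier arrays by -0.50 ± 0.12 (adjusted p = 0.0176). Its relative ccnb2 had signals of 188 at 24 hpf, 160.3, 213, 185 and 151 in control eyes, and 215, 216, 222 and 122 in ethanol eyes. Again the lowest arrays were those of 48 hpf, in either arm (-0.55 ± 0.15 against earlier arrays, adjusted p = 0.0319, with a slope at adjusted p = 0.0616). The kinase gene cdk1 itself stood at 922 at 24 hpf, 1001, 1182, 1068 and 999 in control eyes, and 928, 923, 1082 and 792 in ethanol eyes. Its ranges overlapped between late and early arrays, and its slope was -0.08 ± 0.18 (adjusted p = 0.751). For ccna2, the cyclin of DNA synthesis and early mitosis, the signals were 342 at 24 hpf, 231, 537, 424 and 270.1 in control eyes, and 317, 332, 377 and 335 in ethanol eyes, without order in time. The divergent B-type cyclin ccnb3 had a slope of 0.04 ± 0.23, and ccna1, a germ-line cyclin in mammals, was below the filter on every array (0.711 to 4.58).

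Of the kinases that drive mitosis, plk1, which matures centrosomes and promotes mitotic entry, had a signal of 731 at 24 hpf, 739, 781, 818 and 590.4 in control eyes, and 701, 672, 858 and 625 in ethanol eyes. Both 48 hpf values were below all others, but the difference of -0.31 ± 0.13 did not pass the test (adjusted p = 0.116). The spindle-pole kinase gene aurka passed this added comparison but not the slope (-0.45 ± 0.19, adjusted p = 0.0853). Its signals were 414 at 24 hpf, 435, 533, 441 and 324 in control eyes, and 407, 393, 459 and 298 in ethanol eyes, with 48 hpf lower by 0.48 on the log2 scale (-0.48 ± 0.14, adjusted p = 0.0317). The checkpoint kinase gene ttk (-0.32 ± 0.14, adjusted p = 0.125) and incenp, the scaffold of the Aurora B complex (-0.31 ± 0.16, adjusted p = 0.166), also had both 48 hpf arrays below the rest. By contrast, plk4, the kinase of centriole duplication, read 144 in control but 197 in ethanol eyes at 48 hpf, and its difference was -0.01 ± 0.17.

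In the spindle checkpoint group, 3 of the 4 tested genes had slopes called lower by adjusted p alone, beside 19.8% of all probe sets. The gene mad2l1 encodes Mad2, which binds and restrains Cdc20. Its signal was 924 at 24 hpf, 767, 918, 787 and 652 in control eyes, and 753, 735, 678 and 443 in ethanol eyes. Values were lower in the ethanol array at all 4 stages and lowest at 48 hpf in both arms, and the slope was -0.63 ± 0.17 (adjusted p = 0.0121). The checkpoint gene bub1ba, of the BubR1 family, had signals of 165 at 24 hpf, 168, 176, 181 and 100.4 in control eyes, and 175, 148, 126 and 107 in ethanol eyes, and fell by 0.70 per 24 h (SE 0.18, adjusted p = 0.01). Its control values held until 36 hpf, whereas the ethanol values were already below the 24 hpf array at 30 and 36 hpf. The partner bub3, a kinetochore adaptor, fell by 0.45 (SE 0.15, adjusted p = 0.0323), from 643 at 24 hpf to 477 and 456 at 48 hpf. A dimmer bub3 probe set had a slope of -0.43 (adjusted p = 0.141). The bub3 call was lost under 6 of 16 alternatives. For cdc20, the activator that the checkpoint holds back, signals were 488 at 24 hpf, 456, 583, 582 and 458 in control eyes, and 521, 476, 617 and 470.0 in ethanol eyes. Its early and late values overlapped (slope -0.07 ± 0.19, adjusted p = 0.8). The gene bub1bb was below the filter, at signals of 2.18 to 12.4.

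All 7 kinetochore and centromere genes had slopes below 0, beside 52.8% of all probe sets. Of them, 1 passed the test with a change of at least 2-fold, beside 7.39% called lower. This was cenps, which encodes a histone-fold protein of the inner kinetochore that also serves in DNA repair. Its signal was 682 at 24 hpf, 659, 655, 435 and 337 in control eyes, and 751, 645, 517 and 179 in ethanol eyes. Arrays at 36 hpf were already below those of 24 to 30 hpf in both arms, and 48 hpf was lower again, without a peak at 30 or 36 hpf. It fell by 1.62 per 24 h (SE 0.25, adjusted p = 4.48e-04). The Ndc80 complex binds spindle microtubules. Its members differed: spc24 read 188 at 24 hpf, 180.4, 312, 226 and 135 in control eyes, and 173, 200.2, 207 and 99.2 in ethanol eyes. Its 2 arrays at 48 hpf were below all others (-0.81 ± 0.20, adjusted p = 0.0196, with a slope at adjusted p = 0.0751), with a control peak at 30 hpf. The values for ndc80 were 369 at 24 hpf, 344, 427, 463 and 361 in control eyes, and 351, 355, 378 and 330.3 in ethanol eyes, and 48 hpf overlapped the early arrays (-0.13 ± 0.14, adjusted p = 0.505). The third, nuf2, was at -0.28 ± 0.14 (adjusted p = 0.149). Of the others, cenpt, which links the inner kinetochore to the Ndc80 complex, was lower at 48 hpf (-0.50 ± 0.13, adjusted p = 0.0236, with a slope at adjusted p = 0.0557). Neither cenpe, a kinetochore motor (-0.33 ± 0.15, adjusted p = 0.144), nor cenpk, an inner kinetochore protein (-0.22 ± 0.22, adjusted p = 0.497), passed.

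The median over the 10 tested kinesins of the spindle and midzone was highest at 36 hpf in control eyes, 0.40 above 24 hpf, and lowest at 48 hpf, at -0.29. Single genes differed, with kif20a and kif23 highest at 30 hpf among the control arrays. In ethanol eyes the medians at these times were 0.17 and -0.09. In the added comparison of 48 hpf with earlier arrays, 3 of the 10 were called lower, beside 12.4% of all probe sets. These were kif15, a spindle motor (-0.66 ± 0.15, adjusted p = 0.0155), kif20a, of the central spindle (-0.54 ± 0.14, adjusted p = 0.0238), and kif2c, a depolymerase that corrects attachments (-0.46 ± 0.12, adjusted p = 0.0232). The slope passed for kif20a (adjusted p = 0.0187) and not for kif15 (adjusted p = 0.0757) or kif2c (adjusted p = 0.0522). The kif15 signal was 355 at 24 hpf, 388, 430.1, 483 and 229.5 in control eyes, and 335, 373, 372 and 258 in ethanol eyes, so that the 48 hpf arrays stood clear of the rest. A dimmer kif15 probe set did not share this. It read 56.3 and 51.3 in control and ethanol eyes at 48 hpf, beside 58.7 at 24 hpf and 46.3 in ethanol eyes at 27 hpf (slope -0.05, adjusted p = 0.902). A dimmer tested kif2c probe set read 18.7 and 39.1 in control and ethanol eyes at 48 hpf, beside 24.9 to 47.5 on the earlier arrays. There only the control array lay below the rest (slope -0.32, adjusted p = 0.292). The probe sets of kif20a, which disagreed too, are given below. For kif11, the Eg5 motor that pushes spindle poles apart, the values were 208 at 24 hpf, 214, 254, 302 and 216 in control eyes, and 228, 228, 253 and 158 in ethanol eyes. The control array at 48 hpf had returned to the 24 hpf level and only the ethanol array lay below it (-0.36 ± 0.17, adjusted p = 0.147). The midzone motor gene kif23 had a difference of -0.02 ± 0.19 and a slope of 0.19 (adjusted p = 0.5). A dimmer kif23 probe set had a slope of 0.66 (adjusted p = 0.0381). It read 52 at 24 hpf and 75.2 and 98.2 in control and ethanol eyes at 48 hpf. The kif23 partner racgap1, of the centralspindlin complex, was below the filter at 10.5 to 15.7. The spindle motor genes kif18a and kif4 were lower at 48 than at 36 hpf in control eyes (-0.42 and -0.50) and higher in ethanol eyes (0.18 and 0.22). A dimmer tested kif4 probe set was lower in both arms. It went from 126 to 74 in control eyes and from 155 to 102 in ethanol eyes. With the 36 hpf arrays exchanged as the treatment characteristic has them, the brighter kif4 probe set also fell in ethanol eyes, from 287 to 253.

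Condensin had the lowest median step of the roles from 36 to 48 hpf in control eyes, -0.86 over its 6 genes, and one of -0.45 in ethanol eyes. Of the 6, 4 had slopes called lower by adjusted p alone, beside 19.8% of all probe sets. The gene ncapd3, of condensin II, had signals of 377 at 24 hpf, 398, 389, 389.7 and 221 in control eyes, and 412, 405, 337 and 234 in ethanol eyes. It was level until 36 hpf in controls and at 48 hpf stood below all earlier arrays of both arms, with a slope of -0.86 ± 0.17 (adjusted p = 0.00234). The condensin I kleisin gene ncaph read 231 at 24 hpf, 229, 235, 271 and 117 in control eyes, and 217, 175, 228 and 159 in ethanol eyes (slope -0.68 ± 0.25, adjusted p = 0.0488). Here too both 48 hpf arrays were lowest, with the control below the ethanol array. On dimmer ncaph probe sets the slopes were -0.56 (adjusted p = 0.0987) and -0.74 (adjusted p = 0.0636). The ncaph call was lost under 11 of 16 alternatives. For the core ATPase smc4 the signals were 305 at 24 hpf, 301, 281, 345 and 173 in control eyes, and 332, 366, 361 and 263 in ethanol eyes (slope -0.61 ± 0.21, adjusted p = 0.0351). The smc4 call was lost under 7 of 16 alternatives. Its ethanol arrays were higher at all 4 stages. Its partner smc2 had a slope of -0.26 ± 0.22 (adjusted p = 0.366), ncapg2 of condensin II one of -0.61 ± 0.19 (adjusted p = 0.0259), and ncapg of condensin I one of -0.24 ± 0.19 (adjusted p = 0.334).

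In the cohesin and SMC5/6 group, smc5, of a complex that resolves joined chromatids, stood apart. Its signal was 129 at 24 hpf, 155, 106, 90.8 and 53.1 in control eyes, and 144, 147, 85.4 and 66.6 in ethanol eyes. Like cenps it was already low at 36 hpf and lower at 48 hpf, and it fell by 1.34 per 24 h (SE 0.19, adjusted p = 2.43e-04). The cohesin ring genes smc3 (-0.22 ± 0.16, adjusted p = 0.307) and smc1al (-0.09 ± 0.17, adjusted p = 0.71) did not pass. Neither did the topoisomerase II genes, which untangle sister DNA, on their brightest probe sets. The value for top2a, the isoform of dividing cells, was 0.02 ± 0.18 (adjusted p = 0.933), and that for top2b, used also in neurons, was 0.57 ± 0.22 (adjusted p = 0.0643). The top2b signal was 237 at 24 hpf and 472 and 383 in control and ethanol eyes at 36 hpf, then 355 and 378 at 48 hpf. Slopes on the dimmer top2b probe sets were above 0 too. Those of 0.813 (adjusted p = 0.0255) and 0.811 (adjusted p = 0.0211) passed, and those of 0.67 (adjusted p = 0.0833) and 0.24 (adjusted p = 0.539) did not. Of the centrosomal TACC proteins, tacc3, which stabilises spindle microtubules, was near level (-0.19 ± 0.16, adjusted p = 0.375). The signal of tacc2 was 93.5 at 24 hpf, 109.8, 99.7, 189 and 336 in control eyes, and 116, 142, 164 and 268 in ethanol eyes. Both arms were higher at 36 hpf than at 30 hpf and highest at 48 hpf. The rise was 1.64 ± 0.19 per 24 h (adjusted p = 8.18e-05), the only gene of mitotic role called higher.

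**Figure D3:**
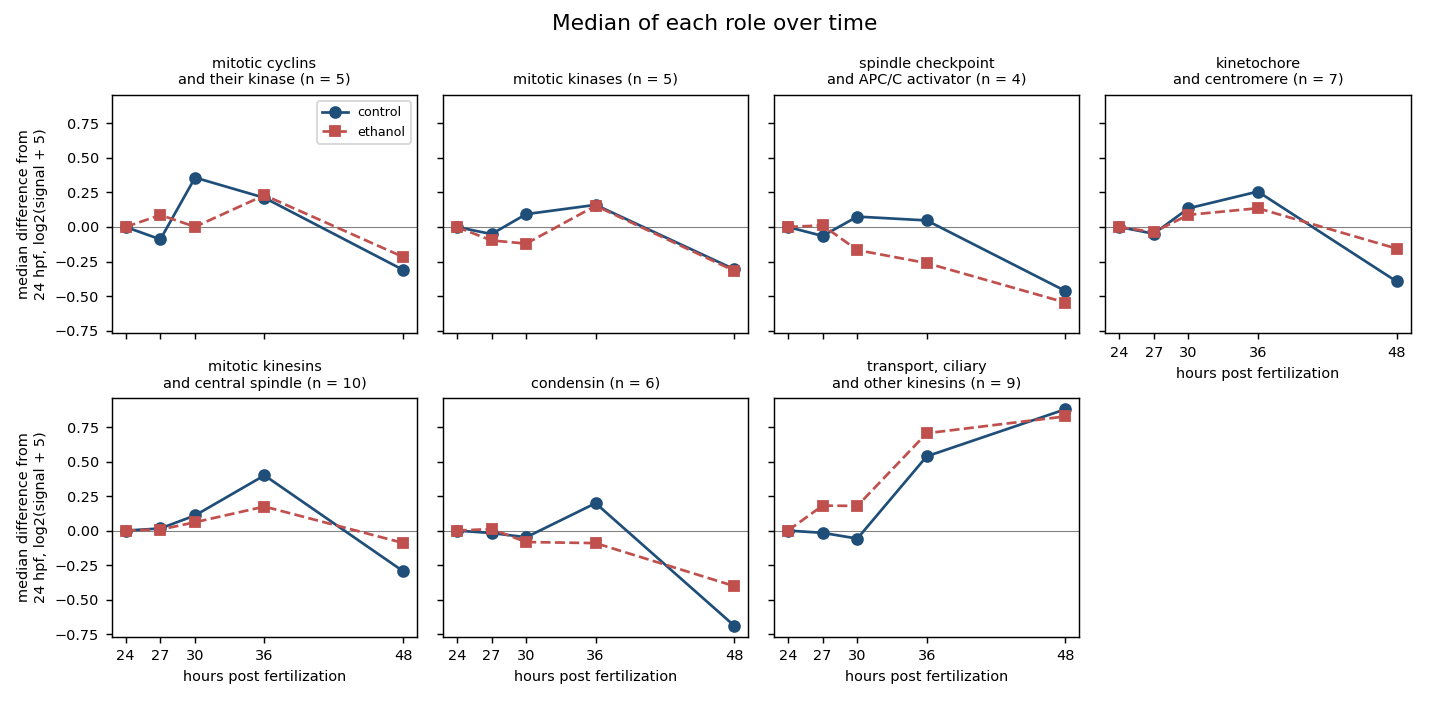
Median difference from the 24 hpf array, log2(signal + 5), against hours post fertilization for the 7 roles with 4 or more tested genes, in control (circles) and ethanol eyes (squares). The 6 mitotic roles lie near or above 0 in control eyes up to 36 hpf and below 0 at 48 hpf, between -0.69 and -0.29, while the transport kinesins reach 0.88.

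Most of the transport kinesins, a label that also holds ciliary and other kif symbols, ran the other way. Of 9 tested, 5 were called higher over time at 2-fold or more, beside 9.07% of all probe sets. Another, kif7, was called lower without reaching 2-fold. The gene kif5aa, a heavy chain of conventional kinesin, had signals of 53.8 at 24 hpf, 82.3, 52.1, 144 and 233 in control eyes, and 69.5, 113, 139 and 317 in ethanol eyes. Both 48 hpf arrays were above all others, and the rise was 2.14 ± 0.26 per 24 h (adjusted p = 1.02e-04). The minus-end motor gene kifc3 stood at 107 at 24 hpf, 105, 103, 145 and 264 in control eyes, and 81.7, 64.5, 177 and 277 in ethanol eyes, level or lower to 30 hpf and higher after it (1.74 ± 0.27, adjusted p = 4.98e-04). The motor subunits of cilia and axons followed. The values of kif3a were 47.3 at 24 hpf, 49.3, 51.9, 88.3 and 111 in control eyes, and 54.3, 76.6, 80.8 and 124 in ethanol eyes (1.22 ± 0.17, adjusted p = 2.88e-04). For the associated subunit kifap3b, a dim gene, they were 21.3 at 24 hpf, 13.4, 14, 35.8 and 43.3 in control eyes, and 15, 18, 25.8 and 35.6 in ethanol eyes (1.24 ± 0.25, adjusted p = 0.00272). Its copy kifap3a rose by less, 0.64 ± 0.21 (adjusted p = 0.0339), a call lost under 8 of 15 alternatives. The axonal motor gene kif1b had signals of 142 at 24 hpf, 121, 132, 209 and 285 in control eyes, and 186, 238, 262 and 427 in ethanol eyes, and rose by 1.22 ± 0.17 (adjusted p = 2.88e-04). The ethanol array was the higher at each of the 4 stages. Neuron markers moved with them. Of 18 tested, 13 were called higher over time at 2-fold or more, beside 9.07% of all probe sets. The summed signal of the neuron markers went from 2732 at 24 hpf to 7201 and 7789 at 48 hpf. With ethanol, 16 of the 18 were above 0 and 2 below, beside 44.4% of all probe sets below 0, and none was called. Their median ethanol difference was 0.08, 0.88, 0.15 and 0.22 at 27, 30, 36 and 48 hpf. The part of neurons in the kinesin values was not tested. In contrast kif7, a ciliary regulator of Hedgehog signalling, read 36.7 at 24 hpf, 32.1, 32.3, 31.3 and 16.2 in control eyes, and 44.8, 42.2, 32.7 and 29.6 in ethanol eyes, with a slope of -0.79 ± 0.16 (adjusted p = 0.00311).

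Over the 56 genes, the slope over 24 h was below 0 in 40 (71.4%), beside 52.8% of all probe sets, with a median of -0.19 beside -0.04. With a requirement of 2-fold, 3 were called lower, beside 7.39% of all probe sets, and 6 higher, beside 9.07%, shares near the background. The third gene called lower was plk3, at 386 at 24 hpf, 288, 469, 312 and 207 in control eyes, and 429, 523, 392 and 193 in ethanol eyes (-1.11 ± 0.26, adjusted p = 0.00584). It peaked at 30 hpf and was lowest at 48 hpf. By adjusted p alone, 13 genes were called lower, beside 19.8%, and 7 higher, beside 17.6%. Both rates were near the background, so the counts of called slopes do not set the 56 genes apart. They pool roles of opposite direction. Among the 44 mitotic genes 36 slopes were below 0, with a median of -0.24, and among the 9 transport kinesins 1 was. The slopes were carried by the last stage. Without the 48 hpf arrays the median slope was 0.51, only 11 of 56 lay below 0, and cenps and smc5 were the 2 genes still called lower. The 13 became 6 without the 27 hpf pair, 3 in untreated and control arrays alone and 7 in the 24 hpf and ethanol arrays alone. Over all 9301 probe sets, slopes called in either direction fell too, from 3478 to 2428, 2028 and 3376 in these fits. Without the 48 hpf arrays they fell to 1298. Of the 11 genes other than cenps and smc5, 9 kept a slope below 0 without the 48 hpf arrays, while ncaph turned to 0.44 and smc4 to 0.32. Among the genes called by the slope with 2-fold, plk3 shrank without those arrays to -0.36 (adjusted p = 0.68). The values of kif1b (1.22), kifap3b (1.59) and kifc3 (1.70) were as large or nearly so, but no longer passed with fewer arrays (adjusted p = 0.0706, 0.0961 and 0.0922).

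**Figure D4:**
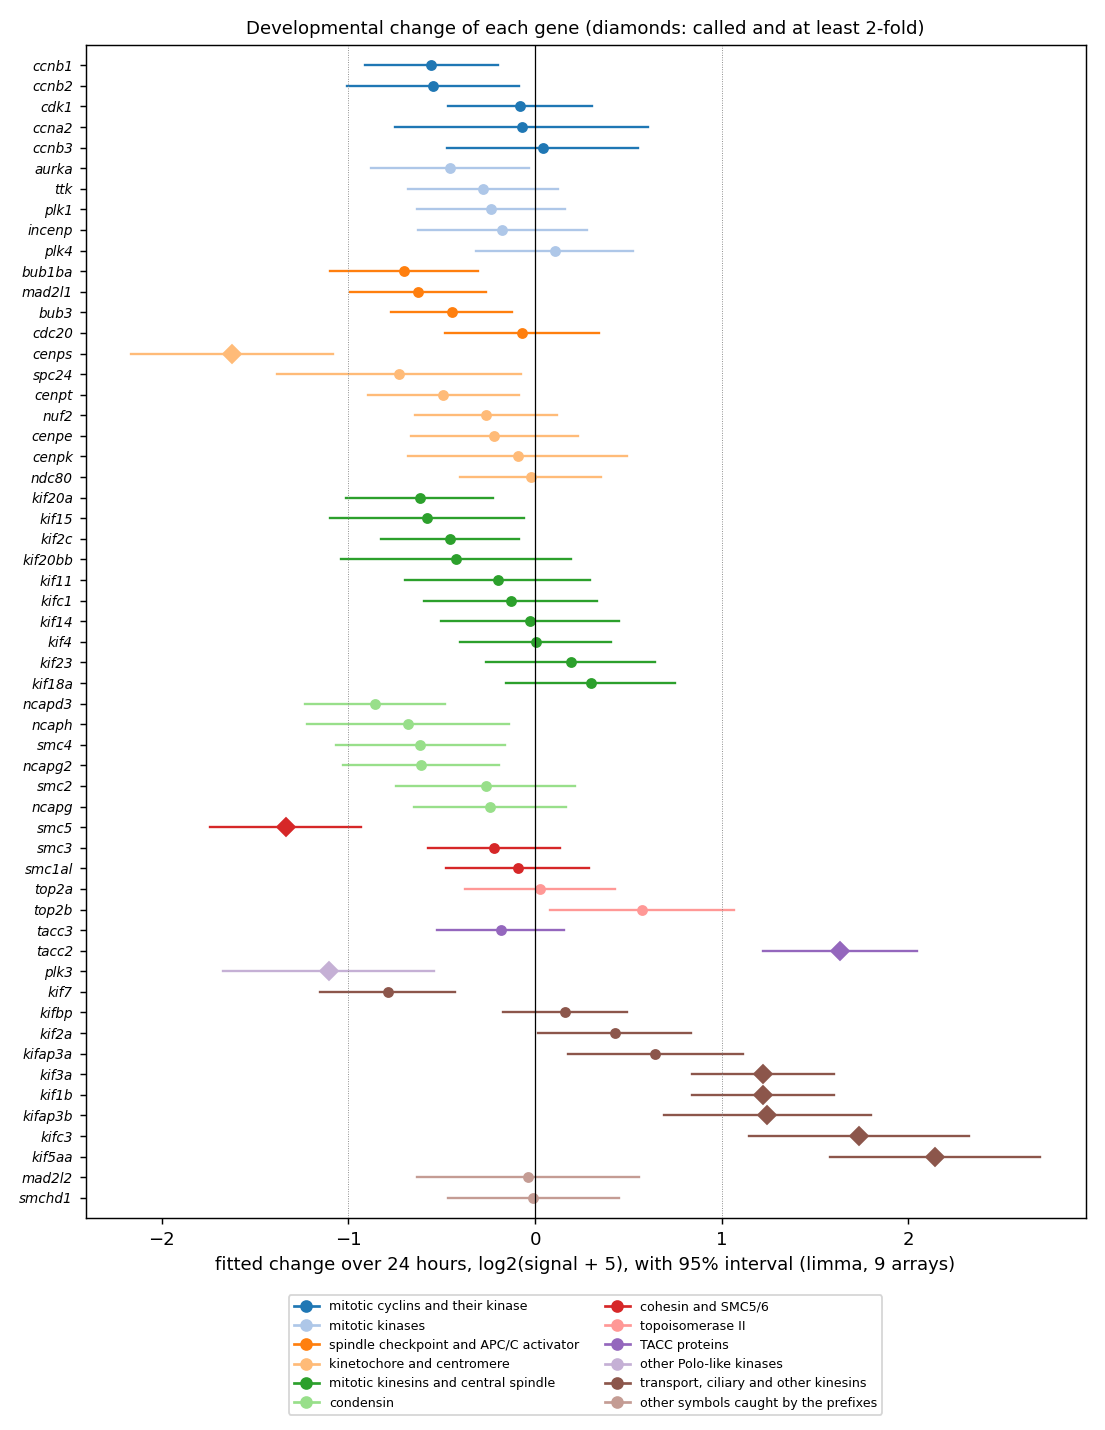
Fitted change over 24 h of each tested gene with its 95% interval, log2(signal + 5), grouped by role over 9 arrays, with dotted lines at a 2-fold change. Diamonds mark the 9 genes called with at least a 2-fold change, 3 lower and 6 higher, and 5 of those 6 are transport kinesins.

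Ethanol was compared with control over the 4 paired stages, each stage serving as its own block. None of the 56 genes was called higher or lower by limma, beside 1.62% of all probe sets called higher and 0.624% lower. At an unadjusted p under 0.05 there were 3 genes (5.4%), beside 23.9% of all probe sets. The mean differences ran from -0.31 to 0.58, with 28 above and 28 below 0 and a median of 0.00. When each array was centred on its median, 41 of 56 lay below 0, and the median over all probe sets moved alike, from 0.04 to -0.10. Every 95% interval lay within 2-fold in both directions, and a typical one reached 0.31 to either side. A shared difference of 2-fold is outside these intervals, whereas one of 0.3 on the log2 scale would be within the error for most genes.

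**Figure D5:**
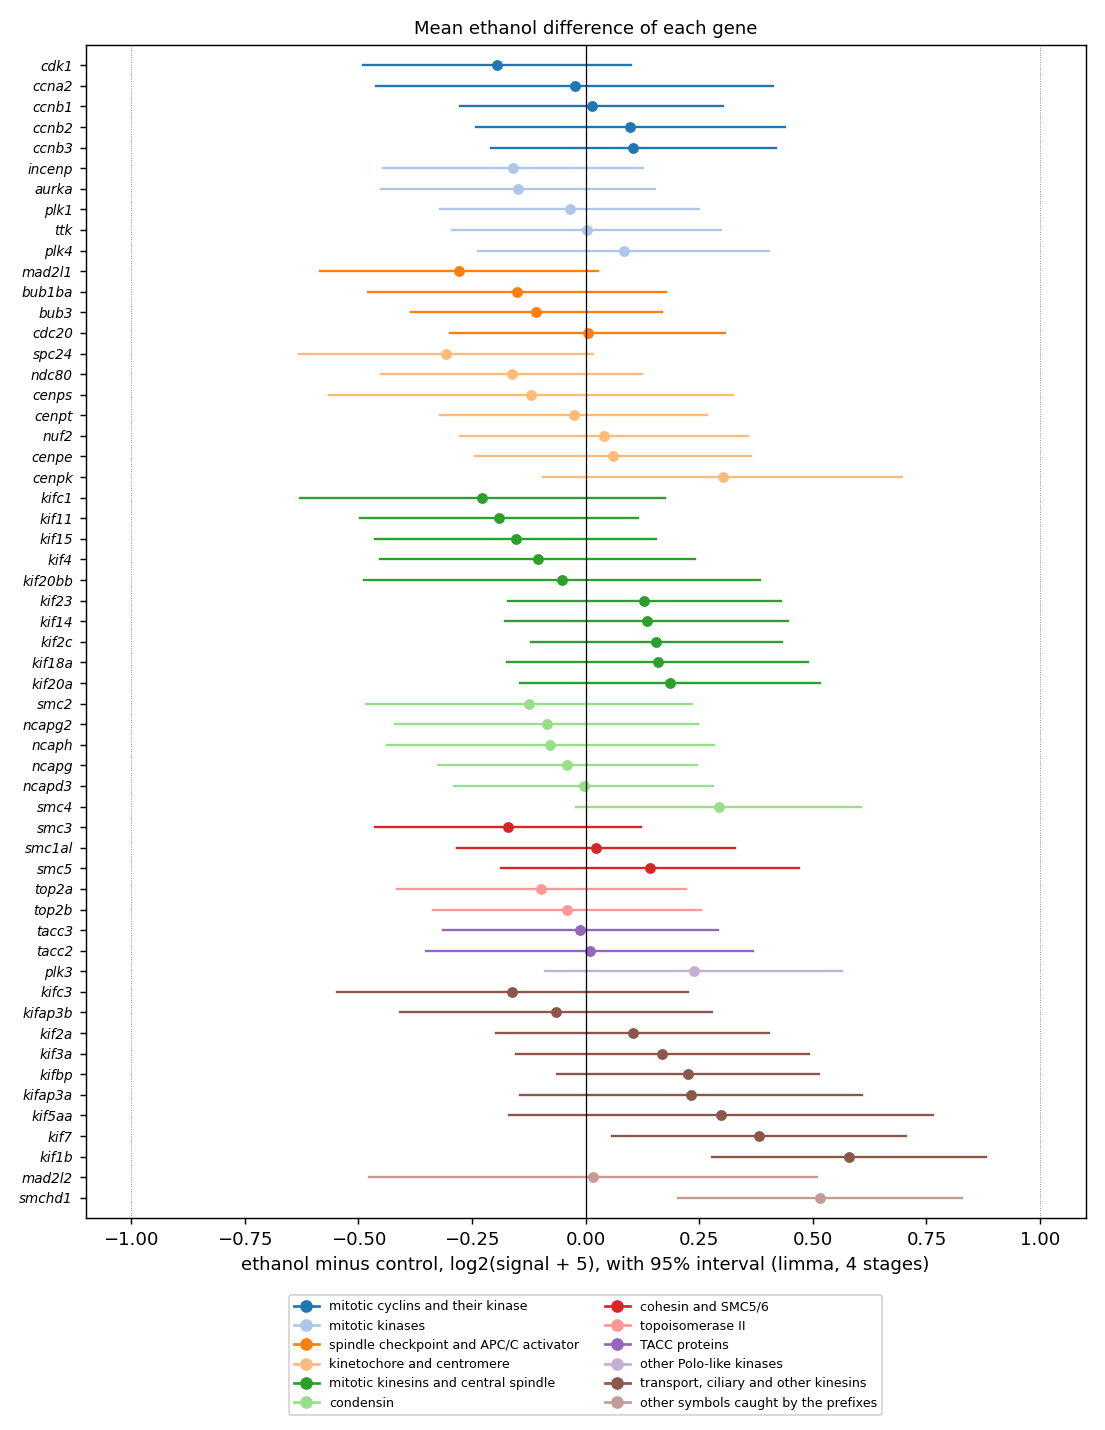
Mean ethanol minus control difference of each tested gene over 4 stages with its 95% interval, log2(signal + 5), grouped by role, with dotted lines at a 2-fold change. The values lie between -0.31 and 0.58, and the intervals of kif1b, smchd1 and kif7 are the 3 that leave out 0.

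The 3 largest differences above 0 belonged to genes outside the mitotic roles. For kif1b, with the signals given above, the ethanol array was higher at 4 of 4 stages, by 0.58 ± 0.13 on average (adjusted p = 0.0569). It was called under 2 of the alternatives tried, with log2(signal + 20) (adjusted p = 0.0432) and with the brightest 30% of probe sets (adjusted p = 0.0381). The chromatin silencing factor gene smchd1 had signals of 38.9, 60.6, 52.1 and 40.8 in control eyes, and 63.3, 68.3, 83.4 and 66.3 in ethanol eyes. The ethanol array was higher at each stage, with a mean of 0.52 ± 0.14 (adjusted p = 0.0759). The value for kif7 was 0.38 ± 0.14 (adjusted p = 0.153), again with ethanol above control at 4 of 4 stages. At the other end were spc24 (-0.31 ± 0.14, adjusted p = 0.228), mad2l1 (-0.28 ± 0.13, adjusted p = 0.246) and kifc1, a minus-end spindle motor (-0.23 ± 0.18, adjusted p = 0.465). Ethanol arrays were lower at all 4 stages for spc24, mad2l1 and bub3, and higher at all 4 for 6 genes, which is 5.4% and 10.7% of the members beside 14.4% and 17.8% of all probe sets. The medians of the mitotic roles lay between -0.13 for the spindle checkpoint and 0.04 for the mitotic kinesins. They were 0.22 for the transport kinesins and 0.27 for mad2l2 and smchd1, and plk3 stood at 0.24. With arms taken from the treatment characteristic, no gene was called and none had an unadjusted p under 0.05, beside 0 and 0.9% of all probe sets. With the 27 and 48 hpf pairs alone, where the labels match, none was called, beside 0 of all probe sets. There 3 had an unadjusted p under 0.05, beside 9.4%. Neither fit called any probe set, so the absence of called members in them says nothing about these genes.

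At single stages the pairs of arrays were close together. One member, kif5aa, differed by 2-fold or more, at 30 hpf (52.1 in control and 113 in ethanol eyes), beside 3.4% of all probe sets. It no longer reached 2-fold with arrays centred on the median or with quantile normalization. None did at 27, 36 or 48 hpf, beside 1.11%, 1.42% and 6.57%. The interquartile range of the differences was 0.27, 0.32, 0.33 and 0.38 at 27, 30, 36 and 48 hpf, beside 0.45, 0.56, 0.47 and 0.63 over all probe sets. Brightness was not matched between these sets. More genes were lower than higher with ethanol at 30 hpf (36 of 56) and 36 hpf (32 of 56), and more were higher at 48 hpf (39 of 56) and 27 hpf (33 of 56). The share lower was 41.1%, 64.3%, 57.1% and 30.4% at 27, 30, 36 and 48 hpf. Over all probe sets it was 44.4%, 43.4%, 48.4% and 50.4%, so 27 hpf was near the background. Centring on the median turned the count higher at 27 hpf, to 18 of 56. The treatment characteristic exchanges the arms at 36 hpf and leaves no pair at 30 hpf. The largest single values were cenpk at 27 hpf (114 in control, 206 with ethanol), kifc1 at 36 hpf (333 and 178) and cenps at 48 hpf (337 and 179). In none of these 3 genes did the neighbouring stage show a difference of the same size. At 30 hpf the next after kif5aa were kif1b (132 and 238) and the ciliary subunit kifap3a (40.1 and 71.2). At 36 hpf smc2 read 230.1 in control and 152 in ethanol eyes. The polymerase zeta subunit gene mad2l2 read 45 and 73.4 at 27 hpf and 83.6 and 46 at 48 hpf, differences of opposite sign.

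The step from 36 to 48 hpf was smaller in ethanol than in control eyes for 32 of the 44 mitotic genes by the sample titles, and for 21 of 44 by the treatment characteristic. It shares its arrays with the stage differences just given and has no test. The fitted interaction of time with ethanol over 9 arrays called none of the 56, beside 0.118% of all probe sets. At an unadjusted p under 0.05 there were 2, beside 12.7%. With arms from the treatment characteristic it again called none of the 56, beside 0% of all probe sets, with 2 at an unadjusted p under 0.05. Its typical 95% interval reached 0.84 to either side per 24 h, and smaller differences in slope would lie within the error of most genes. The smallest adjusted p was 0.183, for cenps, whose slope was lower by 1.24 in ethanol eyes (-1.24).

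Where a gene had several probe sets, they did not always match. Of 13 genes with at least 2 tested, the slope had the same sign on all in 11 and the ethanol difference in 8, with median gaps of 0.39 and 0.13 between probe sets. The widest gap belonged to kif20a. Its brighter probe set had signals of 83.8, 95.5, 86 and 49.5 in control eyes, and 103, 87.6, 88.7 and 73.7 in ethanol eyes. On the dimmer one they were 9.68, 12.1, 18 and 35.2, and 24.8, 49.9, 39.8 and 65.7. The first gave an ethanol difference of 0.19 (adjusted p = 0.466) and a slope of -0.62 (adjusted p = 0.0187). The second gave 1.12 (adjusted p = 0.0262) and a slope of 1.04 (adjusted p = 0.0207). On the dimmer probe set the ethanol array was higher at 4 of 4 stages, and the sign of the kif20a slope depends on which is read. Their average gave a slope of 0.21 (adjusted p = 0.359).

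Genes of the same processes that the symbol rule does not reach gave a similar picture for mitosis and a different one for DNA synthesis. Of 55 tested mitosis genes outside the rule, such as subunits of the anaphase-promoting complex, 47 were lower at 48 than at 36 hpf in control eyes (median -0.44), beside 54.5% of all probe sets. By the slope with 2-fold, 8 were called lower and none higher, beside the 7.39% and 9.07% of all probe sets given above, which hold for each list that follows. Ethanol called none, as for the members. DNA replication genes went down earlier and further. All 43 tested had slopes below 0, with a median of -1.45, and 31 were called lower by 2-fold or more, far above that background. With ethanol, 36 of the 43 were below 0 (median -0.22) and none was called. Of 8 tested genes that act before DNA synthesis, 2 were called lower, ccne1 (-1.59) and cdk2 (-1.29). The 8 were cyclins, a kinase and transcription factors of the E2F and DP families. Of 13 tested genes of cell cycle exit, 6 were called higher, among them gadd45ga (2.64), btg1 (2.23) and the CDK inhibitor cdkn1bb (1.06), and 2 lower.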

How the data were processed

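Total RNA from dissected eyes was hybridised to Affymetrix arrays, per the labels' protocols. The deposited values are MAS5 signal intensities, a name taken from the submitters' processing notes, and no version is stated there. Trimmed by 2% at each end, their mean was 125.02 on each of the 9 arrays, so no further scaling was applied. Because MAS5 corrects by mismatch probes, dim probe sets are noisy. No detection calls were used here.

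Of 15617 probe sets, 115 controls were left out. The upper 60% by mean log2(signal + 5) was tested, 9301 probe sets whose mean on that scale corresponds to a signal of at least 22.66. Symbols came from the platform annotation, updated through gene identifiers (all 62 matched).

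Fits used limma 3.58.1 in R 4.3.3 with Benjamini-Hochberg adjustment over all 9301. Ethanol was fitted on 8 paired arrays with stage as block (3 residual degrees of freedom), development as a slope on hpf over 9 arrays with an ethanol term (6), and the interaction with 5. The fits were tested on simulated data. Steps between single arrays were not tested. A stage difference counted at 2-fold or more with the brighter array above its own median.

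The members, roles, other lists, tests and the rule for named genes were chosen with earlier results of these data known. Named were core mitotic genes, called genes, those of largest ethanol difference overall and at each stage, and members of small roles. The genes ccna1, ccnb3, plk4, bub1ba, cenpt, kif4, kif15, kif18a, ncapd3 and ncapg2 and those of other lists were named after their values were seen. No sequences are shown, and a planned motif search was not run.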

Additional observations from a re-analysis of the deposited data

How the results depend on the processing

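The limits are few arrays, no repeated condition and a contradicted treatment label. The count of genes called higher with ethanol was 0 and became 1 with log2(signal + 20), 1 with the brightest 30% of probe sets (both kif1b) and 1 with probe sets averaged (kif20a, 0.65, adjusted p = 0.0403). The 6 genes called higher over time became 3 with the brightest 30% and 3 for 48 hpf against earlier arrays, a comparison chosen after seeing the data. The 3 called lower became 1 in that comparison and 13 with no fold requirement. The 1 gene apart by 2-fold at 30 hpf became 0 with arrays centred on the median and 0 with quantile normalization. Leaving out each stage in turn gave 4 to 6 genes called higher and 2 to 3 lower over time, and 0 for ethanol and the interaction. It gave median slopes of -0.29 to 0.51, the latter without 48 hpf, and median ethanol differences of -0.03 to 0.04. Centring on the median shifted the median of all probe sets to -0.10 for ethanol and -0.19 for the slope, and those of the members to -0.14 and -0.35. It raised the genes with slopes called lower by adjusted p alone from 13 to 19. Over all probe sets the slopes called in either direction went from 3478 to 3904. Genes called lower at 48 hpf went from 19 to 24, beside 12.4% and 19.0% of all probe sets. The causes were not tested. No value called with its fold requirement changed sign under any alternative. Among genes called by adjusted p alone, ncaph and smc4 did so without 48 hpf (0.44 and 0.32) and kif20a with probe sets averaged (0.21). Among uncalled values the sign changed under at least 1 alternative for 28 of 45 ethanol differences and 27 of 36 slopes. The motif alternative was not run. Stage pairs the arrays in the ethanol fit, and the labels give no other pairing.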
